A study of Homo sapiens
Mus musculus with 3 samples.

Results

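Jurkat is a human T-cell leukemia line, and its cells were recovered here as nanowells of a chip whose reads were mostly human and carried transcripts of immature T cells. A well counted as a Jurkat well when it held at least 1000 reads, at least 200 genes and at least 90% human reads, when at least 3 reads came from 6 T-cell genes (TCF7, LEF1, ITM2A, MAL, CD28 and CD1E, the Jurkat set), and when these were at least 3 times the reads of 6 cytotoxic genes (GZMB, GZMA, PRF1, NKG7, GNLY and CST7, the cytotoxic set). By this rule, 1194 of 4782 well barcodes were Jurkat wells. The wells were therefore chosen by measured values, and the levels of the 12 genes in them are a description, not a finding.

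The material was a mixture of equal parts of 4 lymphocyte lines: Jurkat, TALL-104 (a human cytotoxic T-cell leukemia line), the mouse T-cell lymphoma EL4, and IVA12, a B-cell hybridoma from mouse. All 3 libraries were made on the ICELL8 cx, which dispenses cells into nanowells, images them and gives the transcripts of each well a known barcode. The 3'DE group (the official 3' differential expression kit) had 2 libraries, called replicate 1 and replicate 2 here. The 3'DE-UMI group had 1, called the UMI library, for which leftover primers were cleaned away and digested ahead of amplification to let unique molecular identifiers (UMIs) be counted. The labels name no treatment. The study's methods list interleukin 2 (IL-2) in the medium of TALL-104 cells and not in that of the other lines. The study's sample summary gives replicate 2 and the UMI library the same cell mixture and replicate 1 another.

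As background, T-cell leukemias of the Jurkat kind keep features of developing T cells. TCF7 and LEF1 are related transcription factors that act with Wnt signalling and are needed for T-cell development in the thymus. CD1E belongs to the CD1 family of lipid antigen presentation, which marks cortical thymocytes, and CD28 is the receptor that gives T cells their costimulatory signal. Cytotoxic T cells instead store granzymes, perforin and granulysin in granules, which Jurkat cells are not known for.

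The tables held between 35581264 and 109702878 reads per library, and 1635, 1432 and 1293 wells passed the read and gene minimum in replicate 1, replicate 2 and the UMI library. Values below follow this order of libraries. Jurkat wells numbered 383, 426 and 385. They made up 23.4% of kept wells in replicate 1 (exact binomial 95% interval, 21.4 to 25.6), 29.7% in replicate 2 (27.4 to 32.2) and 29.8% in the UMI library (27.3 to 32.4). The share of the UMI library lay next to that of replicate 2, from the same cell mixture, and the 3'DE libraries differed from each other by more than their intervals. The nearness of the UMI library to replicate 2 depended on the limit of 90% human reads, since at 95% the shares were 14.3%, 17.7% and 28.2%. It also depended on the marker rule. Human wells with too few marker reads, but nearer to the summed profile of Jurkat wells than of TALL-104 wells, numbered 18, 17 and 136 (described below). None of these was counted in the shares. Of the human wells, 71.9%, 88.0% and 69.1% were Jurkat wells. TALL-104 wells, chosen by the mirrored rule, numbered 95, 23 and 24. All intervals cover counting error only.

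The rest of the human wells differed between the protocols in what they lacked. Wells with enough reads of both sets were few, at 18, 11 and 7. Human wells with too few reads of either set made up 6.94% of human wells in replicate 1 (exact binomial 95% interval, 4.93 to 9.44), 4.96% in replicate 2 (3.20 to 7.29) and 25.3% in the UMI library (21.8 to 29.1). The 141 such wells of the UMI library had a median of 8686 reads and 507 genes, and 108 of them held no read of any of the 12 genes. Across 3710 other genes, 136 of the 141 correlated better with the summed profile of Jurkat wells than with that of TALL-104 wells, against 18 of 37 and 17 of 24 such wells in the 3'DE libraries. Of the Jurkat wells, 99.2%, 99.5% and 99.7% were nearer to the Jurkat profile, a profile that holds the wells themselves. More wells nearer to the Jurkat profile were thus left out by the rule in the UMI library than in either replicate.

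Counted in reads, the minimum of 3 passed few wells narrowly. Jurkat wells held a median of 43, 91 and 44 reads of the Jurkat set. Those with 3 or 4 such reads numbered 10, 5 and 13 and had median depths of 5554, 3954 and 14478 reads. Just outside the limit, 7, 6 and 25 human wells held 1 or 2 such reads with the required ratio, at median depths of 4616, 2195.5 and 11235 reads. In the UMI library the genes of the set averaged 11.2 (TCF7) to 23.4 (CD1E) reads per UMI, so 1 UMI could pass a well. Similar numbers of reads are therefore not similar margins in molecules. Barcodes are a fixed set in this system and recur between chips: 69 barcodes were Jurkat wells in both 3'DE libraries, 69 in replicate 1 and the UMI library, and 61 in replicate 2 and the UMI library.

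Among the 6 genes of the Jurkat set, CD1E and ITM2A carried most of the reads. CPM here means reads of a gene over all human reads, scaled to parts per 1e6, summed over the wells of a line in a library, and it is not scaled by gene length, so genes are ordered by reads and not by transcripts. CD1E was at 988 CPM in replicate 1, 1146 in replicate 2 and 972 in the UMI library. It ranked 160th, 133rd and 164th of all human genes by reads. ITM2A, a membrane protein of developing T cells, was at 555, 657 and 881 CPM. LEF1 was at 209, 211 and 391 CPM. TCF7 was at 98.8, 174.5 and 47.2 CPM. CD28 was at 64.5, 58.4 and 136 CPM. MAL, a membrane protein of lipid rafts, was lowest at 20.7, 53.7 and 9.60 CPM. The order CD1E, ITM2A, LEF1 held in each library, whereas TCF7 stood above CD28 in the 3'DE libraries and below it in the UMI library.

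**Figure D1:**
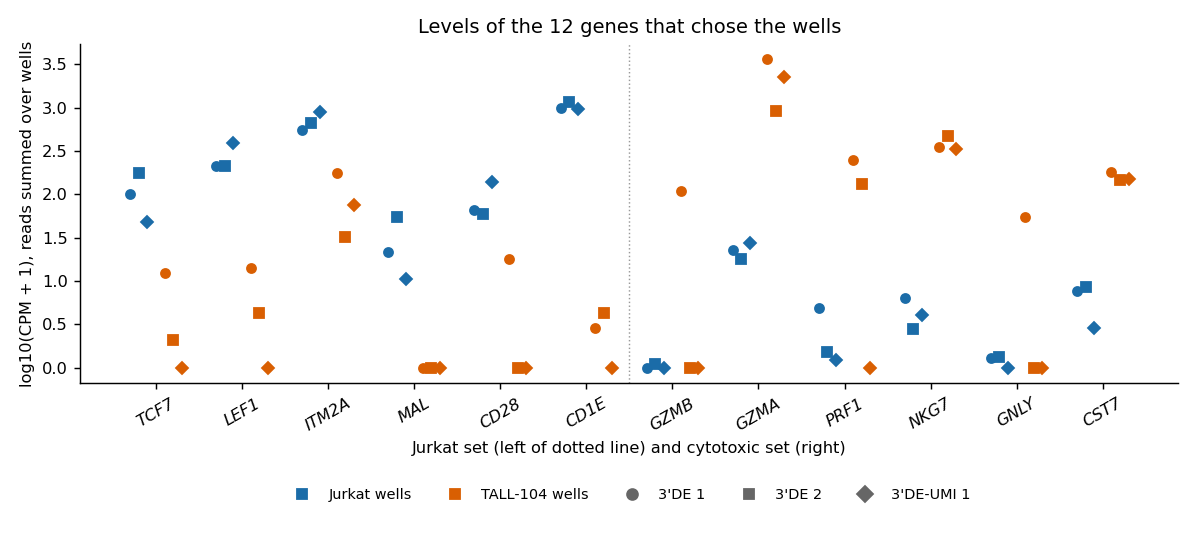
Levels of the 12 genes of the rule, as log10 of CPM + 1 of reads summed over Jurkat wells (blue) and TALL-104 wells (orange), with the library given by the marker shape. CD1E lies between 972 and 1146 CPM in Jurkat wells of the 3 libraries. TALL-104 wells show ITM2A at 175, 31.4 and 74.7 CPM, from reads in 30 of 95, 4 of 23 and 1 of 24 wells.

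TALL-104 wells held little of the Jurkat set, as their rule required, and ITM2A was the highest of the set in them. ITM2A was at 175, 31.4 and 74.7 CPM in TALL-104 wells. These levels came from 93 reads in 30 of 95 wells, 29 reads in 4 of 23 wells and 14 reads in 1 of 24 wells. MAL had 0 reads in each library, at floors (the level of 3 reads) of 5.63, 3.25 and 16.0 CPM. In the other direction, traces of the cytotoxic set remained in Jurkat wells, 71.3%, 71.6% and 89.4% of which held no read of it. GZMA, a granule protease, was the highest of the cytotoxic genes at 21.8, 16.8 and 26.7 CPM, against 3599, 909.8 and 2251 CPM in TALL-104 wells. GZMB was at 0 CPM in replicate 1 and in the UMI library, where 3 reads would be 0.307 and 0.221 CPM, and at 0.109 CPM in replicate 2.

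In single wells most Jurkat-set genes were often missed. With every well thinned to 5000 reads, which kept 375, 411 and 372 Jurkat wells, ITM2A had a read in 84.5%, 77.6% and 62.6% of wells and CD1E in 78.4%, 78.6% and 55.6%. LEF1 was found in 49.1%, 39.2% and 37.6% of wells, TCF7 in 31.7%, 40.6% and 7.80%, CD28 in 17.9%, 15.6% and 20.7%, and MAL in 5.87%, 13.1% and 1.61%. The UMI library's share lay below both 3'DE shares for each gene except CD28, for which it lay above both. Without thinning, at median depths of 26623, 41964 and 22071 reads, CD1E was found in 88.0%, 90.1% and 60.3% of Jurkat wells.

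Mouse wells should lack these human transcripts and give the background level. Thinned in the same way, mouse wells had a CD1E read in 1.24%, 7.69% and 0.734% of cases and an ITM2A read in 0.339%, 3.64% and 1.03%. The shares of each of the 6 genes were higher in Jurkat wells than in mouse wells of the same library. Jurkat wells were chosen by reads of these genes, so this direction was largely fixed in advance. Without thinning, CD1E was found in 2.71%, 35.7% and 2.86% of mouse wells, at median depths of 23713.5, 31942 and 31408.5 reads, so that background CD1E reads were most frequent in replicate 2.

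**Figure D2:**
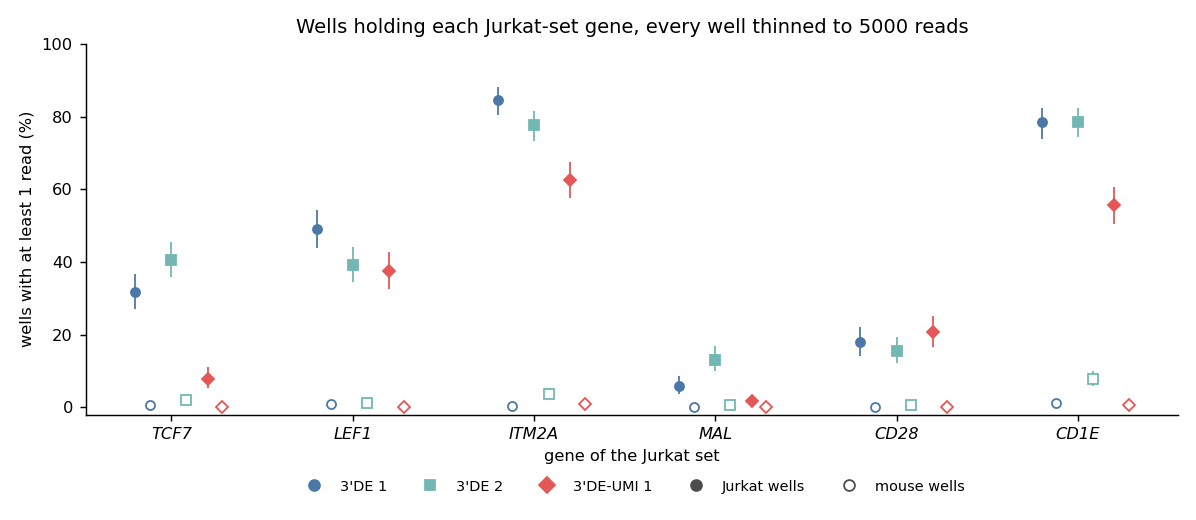
Share of wells with at least 1 read of each Jurkat-set gene after thinning to 5000 reads, in Jurkat wells (filled) and mouse wells (open) of the 3 libraries, with exact binomial 95% intervals. TCF7 is found in 31.7% and 40.6% of Jurkat wells with 3'DE and in 7.80% with 3'DE-UMI, while the mouse wells stay at or below 7.69%. The Jurkat wells were chosen by reads of these genes.

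Few Jurkat wells held the whole set at this depth. All 6 genes were seen together in 2 of 411 wells of replicate 2. They were seen together in 0 of 375 wells of replicate 1, which allows a share of up to 0.8%, and in 0 of 372 wells of the UMI library, which allows up to 0.806%. Exactly 1 gene was seen in 9.33%, 12.7% and 41.4% of wells. Both transcription factors, TCF7 and LEF1, were found together in 18.9% of wells in replicate 1, where the product of their shares is 15.6%. In replicate 2 the values were 15.8% and 15.9%, and in the UMI library they were 2.42% and 2.93%. No direction of joint detection was thus shared by the libraries for this pair.

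A gene can be measured in wells that it did not help to choose. For this, wells were selected on TCF7, ITM2A and CD28 and the other 3 genes were read in them, and the reverse. In wells selected without it, CD1E had a read in 87.3%, 90.6% and 55.4% of Jurkat wells, against 2.02%, 28.6% and 13.8% of TALL-104 wells. ITM2A had one in 96.4%, 88.3% and 62.3%, against 38.2%, 31.0% and 36.1%. Jurkat wells were deeper than TALL-104 wells, so the shares were also taken with every well thinned to 2000 reads. CD1E was then found in 64.7%, 68.0% and 40.4% of Jurkat wells and in 2.11%, 16% and 6.90% of TALL-104 wells. The shares of the 6 genes were higher in Jurkat wells of each library at this depth, except for TCF7 in the UMI library, with 3.66% of 273 Jurkat wells and 5.56% of 36 TALL-104 wells. Mean levels in the UMI library separated the lines less well. CD1E was at 929 CPM in Jurkat wells and 798 CPM in TALL-104 wells, the latter from 288 reads in 13.8% of 29 wells. TCF7 was at 44.2 and 72.5 CPM, the latter from 30 reads in 5.56% of 36 wells. ITM2A was at 788 and 976 CPM. Under the full rule, which limits Jurkat-set reads, the 24 TALL-104 wells of this library held 0 CD1E and 0 TCF7 reads (floor, 16.0 CPM). With 3 libraries a line, an exact permutation test cannot give a p-value below 0.1.

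Jurkat wells of the UMI library held fewer genes. The median was 2645 human genes in replicate 1 (interquartile range, 2238 to 2967.5), 2282 in replicate 2 (1619.25 to 3129) and 910 in the UMI library (636 to 1301). With every well thinned to 5000 reads the medians were 1565, 1344 and 743 genes. On the log2 scale the UMI library differed from the mean of both 3'DE replicates by -0.96 (SD of the replicates, 0.16). Against replicate 2 alone, from the same cell mixture, the difference was -0.86. This was larger than the distance between both replicates, and no test was run, because 2 libraries against 1 cannot give an exact permutation p-value below 0.333.

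**Figure D3:**
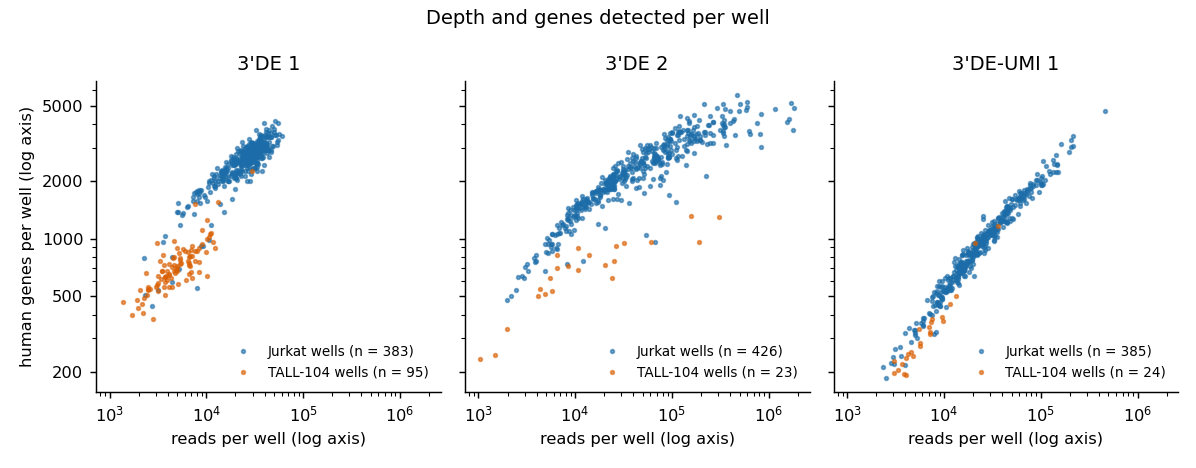
Human genes detected against reads per well, both on log axes, for each Jurkat well (blue) and TALL-104 well (orange) of the 3 libraries. Jurkat wells reach medians of 2645 and 2282 genes with 3'DE and 910 genes with 3'DE-UMI, and in the 3'DE libraries most TALL-104 wells lie below Jurkat wells of the same depth.

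The depth of Jurkat wells varied most in replicate 2. Its interquartile range was 17083 to 107164 reads, compared with 18313 to 34101 in replicate 1 and 13790 to 42306 in the UMI library. Reads per detected gene had medians of 9.71, 17.2 and 24.3. In the UMI table all 385 Jurkat wells of the UMI library were present, with a median of 1740 UMIs (interquartile range, 1067 to 3006) and 13.1 ± 1.60 reads per UMI (SD over 385 wells). At an equal depth of 2000 reads Jurkat wells held 954, 857 and 573 genes at the median and TALL-104 wells 546, 467.5 and 252.5. The Jurkat median was higher in each of the 3 libraries.

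The ratio of reads to UMIs was not the same for each gene of the set. In Jurkat wells CD1E had 23.4 reads per UMI, LEF1 22.1, ITM2A 16.7, MAL 16.2, CD28 15.4 and TCF7 11.2. Reads and UMIs were counted with different tools, and the ratios of MAL and TCF7 rest on 8 and 57 UMIs. Counted by UMIs, CD1E was at 588 UMIs per 1e6 and ITM2A at 745, so that ITM2A stood first by UMIs while CD1E stood first by reads. A UMI of CD1E was found in 59.2% of wells (exact binomial 95% interval, 54.1 to 64.2) and a UMI of TCF7 in 12.2% (9.11 to 15.9).

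Jurkat wells were divided at a set limit of 500 mouse reads, given first for replicate 1. Of its 383 Jurkat wells, 163 held 500 or more mouse reads, with a median of 1908, and 220 held fewer, with a median of 30. Both had similar depth, with medians of 27493 and 26440.5 reads, and similar numbers of genes, with 2641 and 2648. CD1E was at 1117 CPM in the former and 889 in the latter, LEF1 at 195 and 220 CPM, and TCF7 at 99.5 and 98.3 CPM. The direction for CD1E turned in the UMI library, with 922 CPM in wells of 500 or more mouse reads and 1006 in the others, and in replicate 2 the values were 1149 and 1055 CPM. Depth differed between such wells of replicate 2, at medians of 65778.5 and 10322 reads, and TCF7 was at 172 and 242 CPM in them.

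The next question was how the modified protocol changes the measured transcriptome of Jurkat cells. Reads were summed over Jurkat wells per library, and the UMI library was compared with both 3'DE libraries in edgeR (quasi-likelihood F-test with Benjamini-Hochberg adjustment, adjusted p threshold of 0.05). Of 13006 human genes tested, 2051 (15.8%) differed, 849 higher in the UMI library and 1202 lower. In the fit, 2026 of the 2051 differed at least 2-fold. The median log2 change of all genes tested was -0.18. With 1 residual degree of freedom, the test takes the spread of the UMI library from that between the 3'DE replicates. In simulated counts it recovered 0.5% of genes with a log2 change of 1 and 33% with 2. Genes that did not pass are therefore not shown to be unchanged.

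Calls were more frequent among genes with more reads, and their direction turned with level. Of 6467 genes under 10 CPM, 8.27% differed, 175 higher and 360 lower in the UMI library. Of the 166 genes at 1000 CPM or more, 59.6% differed, 71 higher and 28 lower. The most abundant transcripts differed accordingly: of the 20 genes with most reads in Jurkat wells, the 3'DE libraries shared 17, whereas replicate 1 shared 8 and replicate 2 shared 9 with the UMI library.

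**Figure D4:**
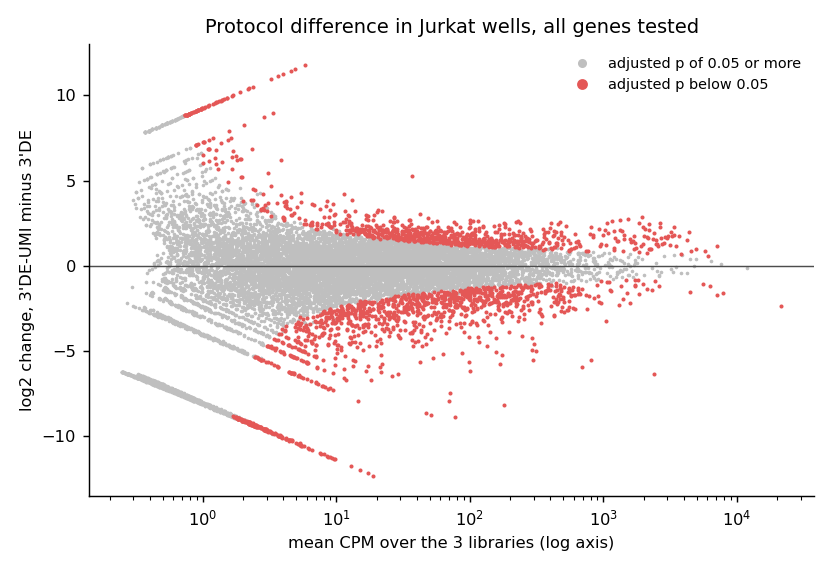
Log2 change between the protocols in Jurkat wells (3'DE-UMI minus 3'DE) against mean CPM over the 3 libraries on a log axis, for the 13006 genes tested, with the 2051 called genes in red. Diagonal stripes hold genes with 0 or few reads in a group, whose fitted change is not a bound, and called genes lie on both sides of 0.

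Against replicate 2 alone, from the same cell mixture, 1459 of the 2051 genes differed at least 2-fold in the direction of the call, on log2 of CPM + 10. Against replicate 1 alone, 1366 did. Both replicates entered the call, which largely fixed these directions. Of the called genes, 158 had 0 reads in the UMI library and 62 had 0 reads in both 3'DE libraries. The number of calls depended on how the UMI library was counted. With its UMIs in place of reads 985 genes passed in edgeR, 738 of them among the 2051. With TALL-104 sums in the same fit, whose 3'DE-UMI sum held 187510 reads, 0 of 12087 genes passed in edgeR and 609 had an unadjusted p below 0.05, whereas DESeq2 on Jurkat sums called 2454.

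The tables pair no Ensembl identifier with a symbol, so only the genes of the rule can be named. ENSG00000198518 had 4.50, 2.11 and 104 CPM with a log2 change of 5.26 (SE 0.55, edgeR adjusted p 1.22e-05). ENSG00000260302 had 7.67, 5.49 and 52.7 CPM with a log2 change of 3.22 (SE 0.54, edgeR adjusted p 0.000891). Both were low in each 3'DE library and higher in the UMI library. ENSG00000197766 had 71.6, 81.5 and 0.148 CPM (edgeR adjusted p 6.30e-06), which in the UMI library was 2 reads. The ratio of its 3'DE mean to its 3'DE-UMI level was 518 (Poisson 95% interval from these reads, 144 to 4281). ENSG00000130748 had 20, 213 and 0.221 CPM (edgeR adjusted p 0.000633), or 3 reads in the UMI library, with a ratio of 526 (180.1 to 2552). Its 3'DE libraries differed widely from each other, so the size of its fall depended on the library it was set against. Both intervals treat reads as independent counts, although Jurkat wells averaged 13.1 reads per UMI, and take the 3'DE mean as fixed. With UMIs in place of reads, the fitted log2 change went from -8.77 to -6.06 for ENSG00000197766 and from -8.84 to -5.70 for ENSG00000130748.

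The genes of the Jurkat set were tested between the protocols in wells selected on the other 3 genes, within fits of all genes in which 16.5% (wells selected on TCF7, ITM2A and CD28) and 16.9% (wells selected on LEF1, MAL and CD1E) of genes passed in edgeR. In these, 2 of the 6 genes passed, a number that depended on the setting for LEF1, TCF7, CD28 and MAL. CD28 rose, with 60.9, 54.2 and 133 CPM and a log2 change of 1.43 (SE 0.40, edgeR adjusted p 0.0229). TCF7 fell, with 99.8, 176 and 44.2 CPM and a log2 change of -1.44 (SE 0.48, edgeR adjusted p 0.0478). The related factor LEF1 had a log2 change of 0.99 (SE 0.33, edgeR adjusted p 0.0521), opposite in sign to TCF7. LEF1 passed with DESeq2 (adjusted p 0.0435), and in edgeR with RLE factors (adjusted p 0.0445), without the filter on low counts (adjusted p 0.0426) and in wells selected on all 6 genes (adjusted p 0.0302). ITM2A had a log2 change of 0.62 (SE 0.30, edgeR adjusted p 0.160), MAL of -1.77 (SE 0.69, edgeR adjusted p 0.0903, and 0.0303 without the filter) and CD1E of 0.01 (SE 0.27, edgeR adjusted p 0.989).

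Neither call held with UMIs, a setting of unlike units. The 3'DE libraries stayed in reads, and their reads per UMI are not known. With UMIs in place of the reads of the UMI library, CD28 had a log2 change of 1.19 (edgeR adjusted p 0.113) and TCF7 of -1.24 (edgeR adjusted p 0.176). LEF1, with many reads per UMI, went from 0.99 to 0.25, and CD1E from 0.01 to -0.79 (edgeR adjusted p 0.154). In wells selected on all 6 genes TCF7 had an edgeR adjusted p of 0.0610. On log2 of CPM + 10, CD28 differed from replicate 1 by 1.02 and from replicate 2, of the same cell mixture, by 1.16, and TCF7 by -1.02 and -1.78.

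**Figure D5:**
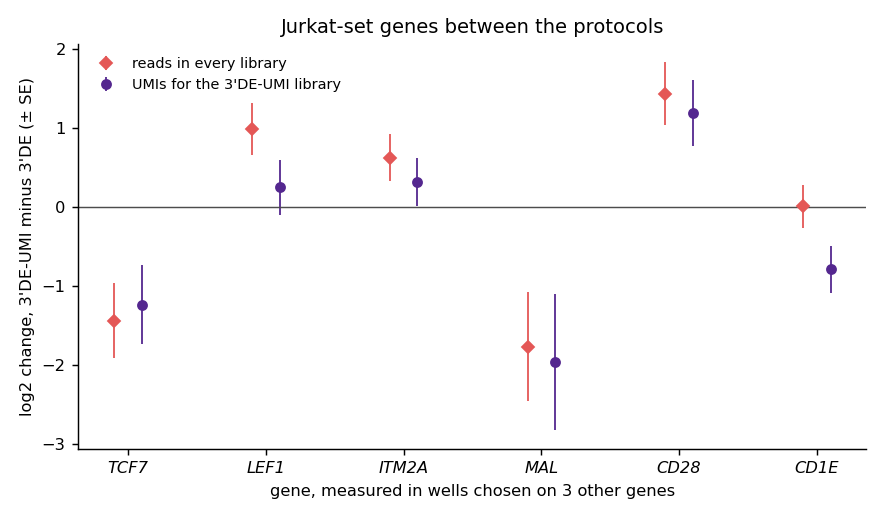
Log2 change of each Jurkat-set gene between the protocols (3'DE-UMI minus 3'DE, with the SE of the edgeR fit), in wells selected on 3 other genes, from reads in every library (red) and with UMIs for the UMI library (purple). CD1E moves from 0.01 to -0.79 and LEF1 from 0.99 to 0.25 when UMIs are used, with the 3'DE libraries still in reads.

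Jurkat wells were also set beside TALL-104 wells across all other human genes, as a description without a test, since the wells were chosen by genes of this contrast. The human lines were grown in different media, with IL-2 for TALL-104 only, and culture cannot be told apart from line here. A gene was counted when it differed at least 2-fold, on log2 of CPM + 10, in the same direction in each of the 3 libraries, among 4061 genes with 20 CPM or more in either line in every library. By this rule 627 genes (15.4%) were higher in Jurkat wells and 170 (4.19%) were lower. The 10 leading genes higher in Jurkat wells had log2 ratios between 3.41 and 5.85, and the 10 leading genes lower in them had ratios between -8.51 and -4.61. ENSG00000111796 had 8.90, 1.54 and 0.148 CPM in Jurkat wells and 3571, 4212 and 2709 CPM in TALL-104 wells. ENSG00000161570 had 25.8, 1.24 and 1.25 CPM in Jurkat wells and 9967, 3859 and 784 CPM in TALL-104 wells. In the other direction, ENSG00000156298 had 223, 224 and 621 CPM in Jurkat wells and 1, 0 and 2 reads in TALL-104 wells. ENSG00000100526 had 459, 566 and 167 CPM in Jurkat wells and 6, 0 and 0 reads in TALL-104 wells.

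The sums of TALL-104 wells were shallow, at 532578, 922186 and 187510 reads, against 9774196, 46045214 and 13547857 for Jurkat wells. Of the 4061 genes, 139, 942 and 1438 had 0 reads in TALL-104 wells and 7, 6 and 21 in Jurkat wells, and the median log2 ratio was 0.39, 1.60 and 1.11. The part of depth in the larger number of genes higher in Jurkat wells was not tested. With every well thinned to 1000 human reads, 757 genes were higher and 197 lower. The sums stayed unequal in this setting, since more Jurkat wells than TALL-104 wells were summed, so it cannot decide the question. Without replicate 1 the numbers were 1471 and 252, without replicate 2 they were 779 and 332, and without the UMI library they were 1169 and 396.

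Jurkat wells of a library differed from each other in CD1E more than nearly all other genes did. The variance of log2 of counts per 10000 was taken over its trend with the mean, in wells thinned to 5000 human reads (374, 408 and 369 wells), for 3228 genes found in at least 5% of wells of every library. CD1E ranked 3rd, 4th and 26th. ITM2A ranked 333rd, 92nd and 104th. TCF7 ranked 2730th, 2809th and 2596th, and MAL was found in too few wells to be ranked. Between wells, the quartiles of CD1E were 250.4, 763 and 1449 CPM in replicate 1 and 286, 983 and 1814 CPM in replicate 2, and in the UMI library they were 0, 376 and 1437 CPM. As CD1E helped to choose the wells, these ranks are a description. They also moved with the kind of count. In the same 298 wells of the UMI library, each thinned to 1000 counts and ranked over the same 1933 genes, CD1E ranked 120th by reads and 652nd by UMIs, and ITM2A ranked 347th and 142nd.

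The most variable genes were shared in part between libraries. Of the 100 with the highest ranks among 3228 genes, the 3'DE libraries shared 38. Replicate 1 shared 17 and replicate 2 shared 23 with the UMI library, and 13 were common to all 3. The overlap that would arise by chance was not computed.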

How the data were processed

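Single-cell RNA-seq was analysed in 3 ICELL8 libraries of 4 mixed cell lines. The deposited tables held counts: the authors counted reads per gene and well with mappa (STAR 2.7.0b) on a combined hg19 and mm10 reference, and UMIs of the 3'DE-UMI library with the Drop-seq tools (STAR 2.4.2a), without scaling. The methods state that reads were downsampled first, and whether the deposited tables come from downsampled reads is not known. Single-cell wells were picked by imaging. No doublet caller was run, and wells with over 10% mouse reads or with enough reads of both marker sets were left out. Groups came from the titles in the labels.

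Reads were summed per library, which was the unit of replication. Nothing in the labels ties the libraries to separate cultures, so p-values measure the spread between these libraries, which may be technical. Protocols were compared in edgeR 4.0.16 (filterByExpr, TMM, quasi-likelihood F-test, two-sided), with DESeq2 1.42.0, RLE factors, no filter, UMIs, equal numbers of wells, stricter well rules and left-out libraries as alternatives. The script was tested on simulated data, in which it recovered 0.5%, 33% and 72% of genes changed by a log2 of 1, 2 and 4. Wells were thinned with numpy 2.4.6 and a fixed seed. Jurkat and TALL-104 wells were compared without a test. Genes were named by rule: the largest changes past the threshold with 50 CPM or more, at most 2 a direction. Identifiers were not paired with symbols apart from the 12 genes of the rule, so planned pathway lists, mitochondrial shares and sequences were not analysed here. The members and lists were chosen with earlier results of these data known. Testing each Jurkat-set gene in wells selected on other genes, the same at equal depth, adding wells with too few marker reads and ranking by UMIs were chosen after seeing the data.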

Additional observations from a re-analysis of the deposited data

Results flagged for a closer look

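Signal of the Jurkat set also appeared outside the wells described. For the 3'DE-UMI library, UMIs were listed under 3000 barcodes, of which 1543 had no column in the read table, and 43 of these held at least 1 UMI of the Jurkat set. None of them held 3 or more (0 of 1543, which allows a share of up to 0.194%), and the 1543 had a median of 44 UMIs. Of 38 human wells of the 3'DE-UMI library with fewer than 200 genes, 4 met the marker rule. The cause was not tested in either case.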

How the results depend on the processing

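No paired analysis was possible because a block for the cell mixture would leave no residual degrees of freedom among 3 sums. Of 155 alternative values for 17 results, 112 were counted as unchanged. Numbers of genes counted so within a set fold of the main number, such as 892 higher than in TALL-104 wells with no level minimum, against 627. Other values counted so when they kept their direction and side of the threshold or moved by less than their error. The share of Jurkat wells moved to 14.3% and 17.7% in the 3'DE libraries at 95% human reads, to 26.7% in replicate 1 at 80%, to 27.4% and 26.3% in replicate 2 and the UMI library at 10 Jurkat-set reads, and to 32.9% in replicate 2 at 5000 reads per well. The log2 difference in genes per well was -1.43 with all reads, -0.66 at 2000 reads and -1.50 with the UMI table, and -1.07 to -0.86 with either 3'DE library left out. Protocol calls numbered 985 with UMIs and 0 with TALL-104 sums in the fit, and 2179 with wells of too few marker reads added. Against TALL-104, a 4-fold limit gave 157 genes higher and 90 lower, a minimum of 50 CPM gave 333 higher, and leaving out a library gave 779 to 1471 higher and 252 to 396 lower. The uncalled change of CD1E was -0.017 without the filter on low counts and -0.79 with UMIs. The cause was not tested. A single 3'DE-UMI library, 23 and 24 TALL-104 wells in the smaller libraries and reads that are not molecules limit these values.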
